A study of Homo sapiens with 4 samples.

Results

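Antisense long non-coding RNA genes were described in cells labelled SKOV3, a human ovarian cancer cell line, either left as controls or given 20(S)-Rg3, a saponin of ginseng. A gene was taken when its symbol ended in -AS and 1 digit and when it had at least 100 read counts summed over the 4 libraries. This gave 130 of the 585 genes so named, in a table of 40205 genes, and another 215 of the 585 had no count at all. The control group held 2 libraries labelled SKOV3 (replicates 1 and 2), with no vehicle named in the labels. The Rg3 group held 2 libraries with the same label, from cells exposed to 80 µg/mL for 24 h. By the labels, all 4 came from 1 cell line grown in RPMI medium with fetal bovine serum, from RNA that the labels call pooled, after depletion of ribosomal RNA. Nothing in the labels tells whether replicates were separate cultures, so a p-value here measures only how far these libraries differ, which may be technical. In bulk RNA, fewer cells expressing a gene and less RNA per cell cannot be told apart.

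An antisense RNA is transcribed from the DNA strand opposite to another gene, called the sense gene here, and overlaps it or starts close to it. Many such RNAs begin at the same open promoter as the sense gene and run the other way, while others begin inside the sense gene or beyond its end. Single antisense RNAs are known to raise or lower their neighbour's expression, to host small RNAs or to bind microRNAs, and for most no function is known. The strand setting of the read counting was not given in the sources used here, so the counts of an overlapping sense and antisense gene may include each other's reads.

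Because the sum of counts chose the genes, their level is a description and is not tested. The last genes taken were TRAF3IP2-AS1 with 100 counts, HOXC-AS5 with 101, and UGDH-AS1 and FAM222A-AS1 with 102 each. The first left out were BCDIN3D-AS1 with 99 counts, NDUFA6-AS1 with 96, and ZBED3-AS1 and ST7-AS1 with 95 each. All 130 passed the low-count filter used for testing, and the lowest count of any of them in any library was 14, so none was tested only because 1 group was high.

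The libraries held 24482846 to 30132517 counts. Of the epithelial and SKOV3 markers, the keratin gene KRT8 was at 1753 to 2467 CPM (CPM are counts divided by the library total, corrected for library composition by the TMM method) and KRT18 at 1557 to 2817 CPM. The mesothelin gene MSLN was at 43.0 to 66.4 CPM. EPCAM had 0 counts in every library, KRT19 had 2 counts in 1 library, and PAX8 was below 1 CPM. The receptor gene ERBB2, which is known to be amplified in SKOV3, was at 45.2 to 53.5 CPM. The absence of EPCAM and KRT19 and the level of ERBB2 go against the cell line label, and the identity of the cells was not tested further. Among markers of other cells, the leukocyte gene PTPRC had 3 counts in 1 library, while PECAM1 and DCN were below 1 CPM and COL1A1 was at 1.62 to 4.68 CPM.

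The name antisense did not describe every one of the 130 genes in a newer gene table, that of RefSeq for GRCh38.p14. There, 120 were long non-coding RNA genes, 3 carried the class antisense RNA, 3 were transcribed pseudogenes and 4 matched protein-coding genes. The symbol was unchanged for 100 genes and an older symbol for the other 30. Of these 30, 13 now end in -DT, for divergent transcript, among them CTBP1-AS2, RAB30-AS1 and COX10-AS1. The protein-coding matches were RPA3-AS1 (now UMAD1), NCBP2-AS2 (NCBP2AS2), MMP24-AS1 (MMP24OS) and HNRNPU-AS1, which is listed under HNRNPU itself. The pseudogene matches were PSMD5-AS1, TP73-AS1 and ZNRD1-AS1. C17orf76-AS1 is now SNHG29, a host gene of small nucleolar RNAs, MKLN1-AS1 is LINC-PINT, and DYNLL1-AS1 is NRAV.

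Where an antisense gene starts was known from RefSeq (GRCh38.p14) for 96 of the pairs, taking the first start listed for each gene. In 32 pairs the genes ran head to head from starts 13 to 992 bases apart, and in 24 of these the starts were at most 250 bases apart. In 18 the antisense gene started up to 1000 bases past the sense start, in 19 farther inside the sense gene and in 24 beyond its end, while 3 more were head to head at a greater distance. OIP5-AS1, FGD5-AS1, MCM3AP-AS1 and TTN-AS1 started beyond the end of the sense gene. MAFG-AS1, LIFR-AS1, PRRT3-AS1 and VPS9D1-AS1 started inside it.

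Windows of 300 bases around the starts, 250 before and 50 after, are shown for SRRM2-AS1, UBAC2-AS1 and TRAM2-AS1. These are the head-to-head pairs among those with the largest change in the ratio of antisense to sense counts, and there 1 stretch of DNA holds both starts. Sequences are from RefSeq, 5′ to 3′ on the strand of the named gene, and capitals mark the bases that the window of the other gene of the pair also holds, on the opposite strand. For SRRM2 both windows are given, and for UBAC2 and TRAM2 that of the antisense gene.
SRRM2-AS1, GRCh38.p14 chr16:2752551-2752850, minus strand: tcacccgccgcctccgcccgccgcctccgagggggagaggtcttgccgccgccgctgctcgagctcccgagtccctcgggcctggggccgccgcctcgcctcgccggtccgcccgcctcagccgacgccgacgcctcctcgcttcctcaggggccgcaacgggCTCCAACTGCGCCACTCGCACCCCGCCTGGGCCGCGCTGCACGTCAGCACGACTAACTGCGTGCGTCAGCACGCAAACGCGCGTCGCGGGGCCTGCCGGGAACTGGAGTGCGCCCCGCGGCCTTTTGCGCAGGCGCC
SRRM2, GRCh38.p14 chr16:2752388-2752687, plus strand: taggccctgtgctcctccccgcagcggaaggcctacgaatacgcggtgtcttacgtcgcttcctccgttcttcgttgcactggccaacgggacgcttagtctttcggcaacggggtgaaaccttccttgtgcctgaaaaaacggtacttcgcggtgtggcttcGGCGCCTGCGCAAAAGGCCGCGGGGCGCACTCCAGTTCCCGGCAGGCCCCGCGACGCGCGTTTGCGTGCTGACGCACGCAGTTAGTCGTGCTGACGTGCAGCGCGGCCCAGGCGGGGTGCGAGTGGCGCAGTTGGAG
UBAC2-AS1, GRCh38.p14 chr13:99200708-99201007, minus strand: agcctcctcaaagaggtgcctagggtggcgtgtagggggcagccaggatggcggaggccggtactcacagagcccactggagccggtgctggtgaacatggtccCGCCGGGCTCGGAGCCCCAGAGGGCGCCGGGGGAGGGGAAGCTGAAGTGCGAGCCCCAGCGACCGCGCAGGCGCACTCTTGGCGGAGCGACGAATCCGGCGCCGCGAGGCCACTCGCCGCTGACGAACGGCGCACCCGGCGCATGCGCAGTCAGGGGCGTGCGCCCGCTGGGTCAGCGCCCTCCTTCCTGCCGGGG
TRAM2-AS1, GRCh38.p14 chr6:52576952-52577251, plus strand: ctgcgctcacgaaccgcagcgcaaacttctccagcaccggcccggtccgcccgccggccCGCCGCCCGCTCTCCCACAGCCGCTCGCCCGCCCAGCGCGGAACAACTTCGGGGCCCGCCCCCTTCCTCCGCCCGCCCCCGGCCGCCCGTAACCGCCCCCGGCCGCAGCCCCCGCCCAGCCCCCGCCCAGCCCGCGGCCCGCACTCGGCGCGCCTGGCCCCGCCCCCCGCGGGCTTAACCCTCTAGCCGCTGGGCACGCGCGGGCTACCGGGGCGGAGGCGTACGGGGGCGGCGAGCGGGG

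A few antisense genes held a large share of the reads. The sum over the 130 genes was 19702 and 21117 control counts, and 23280 and 19569 after Rg3, between 0.0773% and 0.0805% of a library. C17orf76-AS1, FGD5-AS1 and OIP5-AS1 together took 35.9% of these counts. Total counts ran from 100 to 12663 with a median of 293, so 44 genes had fewer than 200 counts and 12 had 1000 or more. Reads are not scaled by transcript length, so the order of genes by counts is not an order of molecules.

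C17orf76-AS1 had 2928 and 3426 control counts and 3337 and 2972 after Rg3, or 124 ± 7.63 and 116 ± 10.6 CPM (mean ± SD over n = 2 libraries, as for every ± that follows). FGD5-AS1, a long non-coding RNA often studied in tumour cells, had 2631 and 2856 counts, then 3083 and 3155, or 107 ± 0.900 and 116 ± 21.9 CPM. OIP5-AS1, a conserved RNA also called Cyrano that carries a site for a microRNA, had 1306 and 1382 counts, then 1550 and 1445, or 52.7 ± 0.508 and 55.2 ± 6.84 CPM. For each of these 3 genes the CPM of the Rg3 libraries lay on both sides of a control or of both, so the groups overlapped. In FGD5-AS1 and OIP5-AS1 Rg3 replicate 2 was the highest of the 4 libraries and Rg3 replicate 1 the lowest.

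The next genes by CPM were THAP9-AS1 (27.2 ± 2.36 CPM in controls and 24.1 ± 3.51 with Rg3), RPA3-AS1, C1RL-AS1, PSMD5-AS1, MAPKAPK5-AS1, DYNLL1-AS1, ATP6V0E2-AS1, TTN-AS1 and NNT-AS1. Of these, ATP6V0E2-AS1 had both Rg3 libraries (11.3 and 9.72 CPM) below both controls (11.8 and 11.6 CPM). NNT-AS1, named after the mitochondrial transhydrogenase gene, had both Rg3 libraries (10.6 CPM each) above both controls (9.46 and 9.73 CPM). The other 7 overlapped between the groups. Of all genes tested, both Rg3 libraries lay above both controls in 15.3% and below both in 17%. Over the 12 genes with a mean of 10 CPM or more, log2 fold changes ran from −0.17 to 0.14, with standard errors of 0.14 to 0.19.

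**Figure D1:**
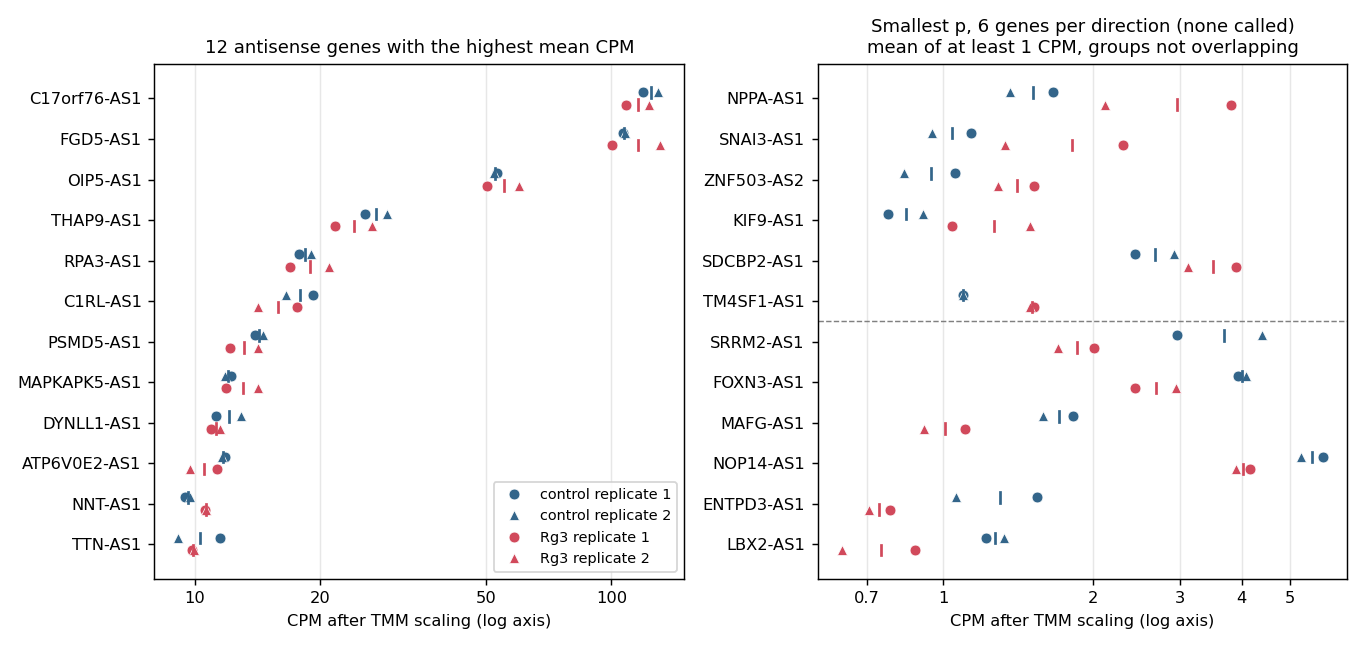
CPM after TMM scaling on a log axis for antisense genes, 1 row per gene; circles are replicate 1, triangles replicate 2, blue the controls, red Rg3, and short vertical lines the group means. On the left are the 12 genes with the highest mean CPM. Of these 10 overlap between the groups, where 15.3% of all genes tested lay above both controls and 17% below. On the right are 6 genes in each direction, with the smallest p at a mean of at least 1 CPM and groups that do not overlap. The minimum of 1 CPM leaves out DGUOK-AS1 and HOXC-AS5.

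No antisense gene was called higher or lower in cells given Rg3. With edgeR's quasi-likelihood test, 0 of 130 had an adjusted p under 0.05, beside 5 of the 16323 genes tested (0.0306%), and the smallest adjusted p among the antisense genes was 0.905, for SRRM2-AS1. At an unadjusted p under 0.05 there were 4 antisense genes, or 3.08%, against 4.73% of all genes tested. Of these, NPPA-AS1 was higher, against 1.83% of all genes that were higher at this level. SRRM2-AS1, DGUOK-AS1 and FOXN3-AS1 were lower, against 2.9% of all genes. DESeq2, which gave 128 of them an adjusted p, also called 0 antisense genes, beside 54 of all genes (0.21%). With limma voom 0 were called as well, beside 5 of all genes (0.0306%). The standard errors of the log2 fold changes were worked back from the test and are approximate. They ran from 0.14 to 0.56 with a median of 0.28, so small changes were not detectable for most of the antisense genes.

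Both Rg3 libraries lay above both controls in 19 antisense genes (14.6%, against 15.3% of all genes tested) and below both in 28 (21.5%, against 17%). The log2 fold change was above 0 in 53 and below 0 in 77, so 40.8% were above 0, where all genes tested had 52.5%. The median was −0.05, the middle 50% ran from −0.19 to 0.11, and all genes tested had a median of 0.01. Against each control in turn, the median over the 130 genes was −0.07 and −0.03 for Rg3 replicate 1 and −0.05 and −0.03 for Rg3 replicate 2. Over the 112 sense genes that were tested, the median was 0.03 and 63 were above 0. As another class of long non-coding RNA, the 60 genes named LINC and a number, with at least 100 counts, had a median of −0.06. Of these, 24 were above 0 and 36 below. An unadjusted edgeR p under 0.05 was found for 4 of the 60, against 4.73% of all genes tested. No test of these medians was made.

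**Figure D2:**
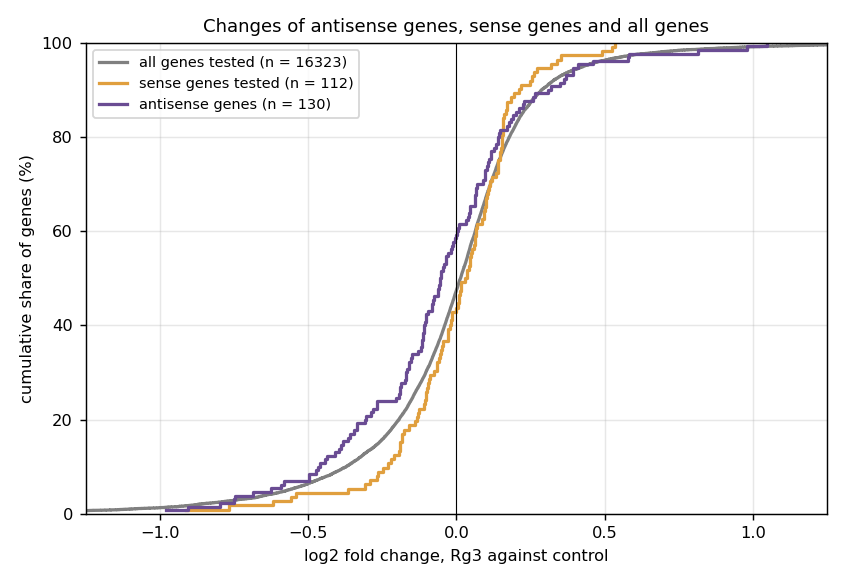
Cumulative share of genes in percent (vertical axis) by log2 fold change of Rg3 against control (horizontal axis, which leaves out the few most extreme of all genes), for the 130 antisense genes, the 112 sense genes tested and all 16323 genes tested. The antisense curve crosses 0 at a higher share of genes than the others, with 40.8% of antisense genes above 0 against 52.5% of all genes.

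On the higher side, the antisense genes with the smallest p at a mean of at least 1 CPM were at low counts. NPPA-AS1, named after the atrial natriuretic peptide gene, had 41 and 36 control counts and 117 and 51 after Rg3, or 1.51 ± 0.214 and 2.96 ± 1.19 CPM. Its log2 fold change was 0.98 (SE 0.35, edgeR adjusted p = 0.999). Without Rg3 replicate 2 it was 1.33 and was called (edgeR adjusted p = 0.042), a fit in which 2.68% of all genes were called. NPPA itself had 0 counts in every library. SNAI3-AS1, named after a gene of the Snail repressor family, had 28 and 25 counts, then 71 and 32 (log2 fold change 0.81, SE 0.38). In both genes the groups did not overlap, as the choice by smallest p required. Rg3 replicate 2 lay nearer to the controls than to Rg3 replicate 1 in both.

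ZNF503-AS2 had 26 and 22 control counts, and 47 and 31 after Rg3. KIF9-AS1, named after a kinesin gene, had 19 and 24, then 32 and 36. SDCBP2-AS1, named after a syntenin gene, had 60 and 77, then 120 and 75. TM4SF1-AS1 starts beside a gene for a surface protein of many tumours. Its replicates lay close together, at 1.10 CPM in each control and at 1.53 and 1.49 CPM with Rg3, from 27, 29, 47 and 36 counts. The log2 fold changes of these 4 genes ran from 0.39 to 0.58, and their edgeR p from 0.131 to 0.185 before adjustment.

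HOXC-AS5 had the highest log2 fold change of the 130 genes, 1.04 (SE 0.48, edgeR adjusted p = 0.999), from 16 and 16 control counts, and 25 and 44 after Rg3. It was singled out after its values were seen. Its neighbour HOXC13, a homeobox gene of the skin and hair, had 190 and 233 counts, then 310 and 205 (log2 fold change 0.17, SE 0.20).

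On the lower side, SRRM2-AS1 had the smallest p of the 130 genes. It lies next to SRRM2, which encodes a protein of the spliceosome and of nuclear speckles. It had 73 and 116 control counts and 62 and 41 after Rg3, or 3.68 ± 1.01 and 1.86 ± 0.220 CPM. The log2 fold change was −0.98 (SE 0.29, edgeR adjusted p = 0.905). All control values were above all Rg3 values, as the choice by smallest p required. However, control replicate 1 (2.96 CPM) was nearer to Rg3 replicate 1 (2.01 CPM) than to control replicate 2 (4.39 CPM). SRRM2 differed widely between the Rg3 libraries, with 2207 and 2063 control counts, and 4584 and 1446 after Rg3.

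DGUOK-AS1, named after a mitochondrial deoxynucleoside kinase gene, had 31 and 35 control counts, and 23 and 15 after Rg3 (log2 fold change −0.90, SE 0.35, edgeR adjusted p = 0.999). FOXN3-AS1, named after a forkhead repressor gene, had 97 and 108, then 75 and 71 (log2 fold change −0.58, SE 0.24, edgeR adjusted p = 0.999). MAFG-AS1 had 45 and 42, then 34 and 22 (log2 fold change −0.75, SE 0.32). In each of these 3 genes both controls were above both Rg3 libraries in CPM, and the controls lay close to each other. For FOXN3-AS1 and MAFG-AS1 the choice by smallest p required groups that did not overlap.

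NOP14-AS1, named after a gene of ribosome assembly, had 144 and 139 control counts and 128 and 94 after Rg3, or 5.55 ± 0.414 and 4.03 ± 0.179 CPM. ENTPD3-AS1 had 38 and 28, then 24 and 17, while its sense gene ENTPD3 had 0 counts in every library. LBX2-AS1, next to a homeobox gene, had 30 and 35, then 27 and 15. Log2 fold changes were −0.46, −0.80 and −0.75, and the edgeR p ran from 0.063 to 0.076 before adjustment. ASB16-AS1 was also singled out after its values were seen, because 1 fit called it. It had 138 and 116 control counts, and 125 and 57 after Rg3 (log2 fold change −0.62, SE 0.30), and without Rg3 replicate 1 it was called lower (edgeR adjusted p = 0.042), where 5.22% of all genes were called.

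A sense gene was found in the table for 128 of the 130 antisense genes, 127 different genes, since PAXIP1-AS1 and PAXIP1-AS2 share PAXIP1. The names of HOXD-AS2 and HOXC-AS5 give a gene cluster and no single gene. The antisense gene held more counts than the sense gene in every library in 27 pairs, and under 5% of the pair's counts in every library in 32 pairs. In 13 pairs the sense gene had fewer than 20 counts in all. FGD5 had 1 count per library beside the 11725 of FGD5-AS1, TTN, the titin gene of muscle, had 3 counts beside the 1065 of TTN-AS1, and DLGAP1 had 5 beside the 950 of DLGAP1-AS1. In these pairs nearly all counts lay on the antisense gene.

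Of the sense genes 0 were called, beside 5 of all 16323 genes tested (0.0306%). In edgeR 4 of the 112 sense genes tested (3.57%) had an unadjusted p under 0.05, against 4.73% of all genes tested. The pairs of these 4 genes are named for the p of the sense gene, after it was seen. LIFR, the receptor of leukaemia inhibitory factor, had a log2 fold change of 0.49 and LIFR-AS1 0.31. The protease inhibitor gene A2M had −0.56 and A2M-AS1 −0.38. The secreted-protein gene C1QTNF1 had −0.91 and C1QTNF1-AS1 −0.44, and PRRT3 had −0.77 where PRRT3-AS1 had −0.05. A2M-AS1 had 220 and 217 control counts, and 210 and 152 after Rg3, and C1QTNF1-AS1 had 202 and 204, then 157 and 161. Both genes of the A2M and C1QTNF1 pairs had negative log2 fold changes, and the antisense gene was below both controls in both Rg3 libraries.

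Across the 113 pairs with both genes tested, the log2 fold changes of antisense and sense gene had a Pearson r of 0.07 and a Spearman rho of 0.06. Pairs share the 4 libraries and are not replicates, so no p is given. The sign was the same in 59 pairs. Both genes were above 0 in 28 pairs and below 0 in 31, the antisense gene alone was above 0 in 18, and the sense gene alone in 36. The r moved with the choice of pairs and libraries. It was 0.43 over the 32 pairs in which both genes had at least 400 counts, and 0.27 without Rg3 replicate 1.

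**Figure D3:**
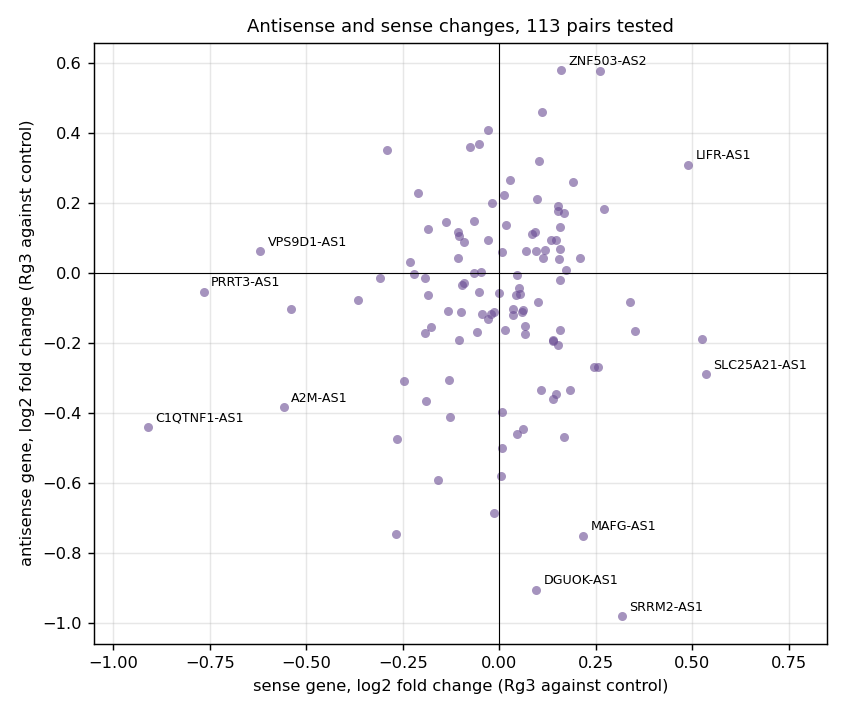
Log2 fold change of Rg3 against control for the antisense gene (vertical axis) and its sense gene (horizontal axis), 1 point for each of 113 pairs with both genes tested. The points form no line (Pearson r 0.07), and SRRM2-AS1, DGUOK-AS1 and MAFG-AS1 lie low on the antisense axis while their sense genes lie above 0.

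Where both genes have ample counts, the ratio of antisense to sense counts within a library does not depend on how libraries are scaled. Its log2 change from control to Rg3 (0.5 added to each count) had a median of −0.05 over the 128 pairs, with 58 above 0 and 70 below. Against control replicates 1 and 2, the median over these pairs was −0.070 and −0.076 for Rg3 replicate 1. For Rg3 replicate 2 it was −0.019 and 0.0051, so the sign was not kept. These pairs include 13 whose sense gene had fewer than 20 counts in all, 2 of them at 0. With a sense gene at 0, the ratio follows the antisense count and with it the library total. In both Rg3 libraries the ratio was above both controls in 18 pairs (14.1%) and below both in 28 (21.9%). Among all 194 antisense genes with a sense gene that passed the low-count filter, the same was so for 13.9% and 22.2%. These 194 include the 128 pairs, so the likeness of the shares was partly fixed in advance. With 2 libraries a group an exact permutation test cannot give a two-sided p below 0.333. No model was fitted to the ratios across pairs, so their changes are given as descriptions.

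Among pairs whose sense gene also had at least 100 counts and whose ratios did not overlap between the groups, the lowest ratio change was that of SRRM2-AS1, −1.13 (−2.05 to −0.21 when each Rg3 library is set against each control). There the antisense share of the pair's counts ran from 1.33% to 5.32%. DGUOK-AS1 followed with −0.99 (−1.33 to −0.66), MAFG-AS1 with −0.93 (−1.28 to −0.59) and SLC25A21-AS1 with −0.83 (−1.41 to −0.26). MAFG, which encodes a small MAF transcription factor, had 1333 and 1083 control counts, and 2134 and 990 after Rg3. SLC25A21, a mitochondrial carrier gene, had 47 and 64, then 88 and 83, while SLC25A21-AS1 had 38 and 33, then 38 and 25. MFI2-AS1 had −0.72 (−0.98 to −0.47) and UBAC2-AS1 −0.65 (−0.91 to −0.39). MFI2, the melanotransferrin gene, had 176 and 157 counts, then 230 and 131 (log2 fold change −0.01, SE 0.24), and MFI2-AS1 had 36 and 36 counts, then 34 and 15.

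In the other direction VPS9D1-AS1 had a ratio change of 0.78 (0.50 to 1.06), PRRT3-AS1 0.74 (0.46 to 1.01) and TRAF3IP2-AS1 0.63 (0.56 to 0.71). In the first 2 pairs the log2 fold change of the sense gene was −0.62 and −0.77, and that of the antisense gene 0.06 and −0.05. VPS9D1 had 61 and 59 control counts, and 67 and 20 after Rg3, beside 128 and 133, then 213 and 89 for VPS9D1-AS1. PRRT3 had 57 and 65, then 50 and 28, beside 55 and 64, then 68 and 55 for PRRT3-AS1. TRAF3IP2 encodes an adaptor of interleukin-17 receptors, and it had 815 and 739 counts, then 801 and 575, beside 23 and 19, then 34 and 24 for TRAF3IP2-AS1. Its 4 ratio changes were the closest together of the 12 pairs named for their ratio. DNAH17-AS1, beside an axonemal dynein gene, had 0.62 (0.07 to 1.17), TRAM2-AS1 0.43 (0.15 to 0.71) and ZNF503-AS2 0.43 (0.30 to 0.56).

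In the windows printed above, the starts of SRRM2-AS1 and SRRM2 are 38 bases apart and their windows share 137 bases with 21 CG dinucleotides. SRRM2-AS1 had a log2 fold change of −0.98 and SRRM2 0.32 (SE 0.36). The starts of UBAC2-AS1 and UBAC2, which encodes a protein of the endoplasmic reticulum membrane, are 97 bases apart and the windows share 196 bases. UBAC2-AS1 had 40 and 43 control counts, and 40 and 25 after Rg3 (log2 fold change −0.47, SE 0.32), and UBAC2 had 652 and 794, then 971 and 771 (0.17, SE 0.15). The starts of TRAM2-AS1 and TRAM2, a gene of protein transport into the endoplasmic reticulum, are 142 bases apart with 241 bases shared. TRAM2-AS1 had 43 and 41 counts, then 58 and 57 (0.36, SE 0.29), and TRAM2 had 1824 and 1944, then 2206 and 1650 (−0.07, SE 0.13). None of these genes was called, and in each of the 3 pairs the antisense and sense fold changes had opposite signs, as the choice of pairs by their ratio favours.

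The start windows of the antisense genes were richer in G and C than those of all genes. RefSeq held a window for 112 of them, with a median of 67% G and C and 27 CG dinucleotides, against 58.3% and 14 over the 27305 genes with a window. The 112 were chosen by their counts in these cells and the 27305 were not. Expressed genes alone were not set beside them, so these differences are not shown to be particular to antisense genes. The letters TATAAA stood in 5 of 112 windows (4.46%, against 11.95% of all), and CCAAT in 41 (36.6%, against 35.7%). The search covered both strands, the letters of one motif cannot hold the other, and neither stood in the 4 windows printed above.

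By position of the start, the median log2 fold change was −0.02 in the 32 head-to-head genes (14 above 0), −0.09 in the 18 that start just past the sense start (8 above 0), −0.05 in the 19 farther inside (7 above 0) and −0.05 in the 24 beyond the end (11 above 0). In the head-to-head pairs antisense and sense had the same sign in 17 of 32, with a Pearson r of −0.19. In the other 3 classes, in the same order, the sign was the same in 11 of 18 pairs, 8 of 16 and 12 of 19. The Pearson r there was 0.28, −0.13 and 0.30. These are descriptions over few pairs that share libraries, and the classes were not tested against each other.

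**Figure D4:**
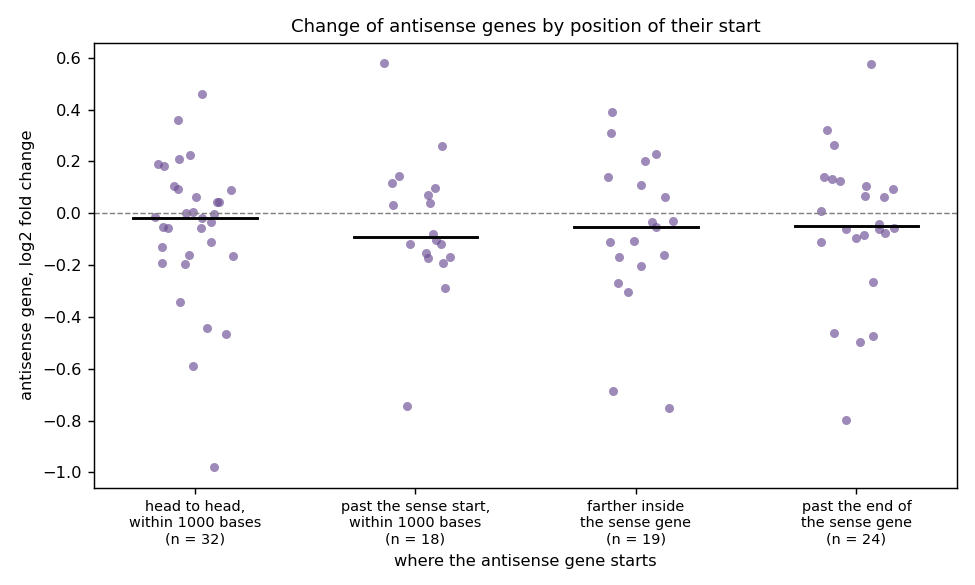
Log2 fold change of Rg3 against control (vertical axis) for antisense genes grouped by where they start relative to the sense gene; each point is 1 gene, black lines are medians, and points are spread sideways for visibility. The medians lie between −0.09 and −0.02 in the 4 classes, and SRRM2-AS1 at −0.98 is the lowest point of the head-to-head class.

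The 2 Rg3 libraries differed from each other in ways that antisense and sense genes partly shared. Over the antisense genes the log2 difference between replicates had a median size of 0.21 in controls and 0.28 after Rg3, against 0.14 and 0.30 over all genes tested. It was over 1 for 4 antisense genes after Rg3 (3.08%, against 5.73% of all) and for 3 in controls (2.31%, against 3.04%). Across the 113 pairs, the differences between Rg3 replicates 1 and 2 of antisense and sense gene had a Pearson r of 0.38 (Spearman 0.27). Between the controls it was 0.10 (Spearman 0.14). By position of the start, the Pearson r between the Rg3 replicates was 0.20 in head-to-head pairs and 0.53 just past the sense start. It was 0.44 farther inside the sense gene and 0.37 beyond its end. Overlapping genes may include each other's reads, and the part of this in the r was not tested. DNAH17-AS1 stood at the far end, with 58 and 27 control counts, and 101 and 27 after Rg3, beside 61 and 50, then 101 and 22 for DNAH17. Here replicates 1 were the high libraries in both groups, and the log2 fold change was 0.41 (SE 0.56), or −0.58 without Rg3 replicate 1.

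VPS9D1-AS1 likewise had 6.92 and 3.70 CPM in the Rg3 libraries around 5.20 and 5.03 CPM in controls. TMPO-AS1, next to the gene of a nuclear lamina protein, had 8.77 and 5.52 CPM in controls and 9.71 and 5.48 CPM with Rg3, so its spread within each group was wider than the difference between the group means. TMPO itself had the opposite order, with 5486 and 6269 control counts, and 6684 and 7034 after Rg3. The part of this library difference in the single changes above was not tested beyond leaving out each library.

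**Figure D5:**
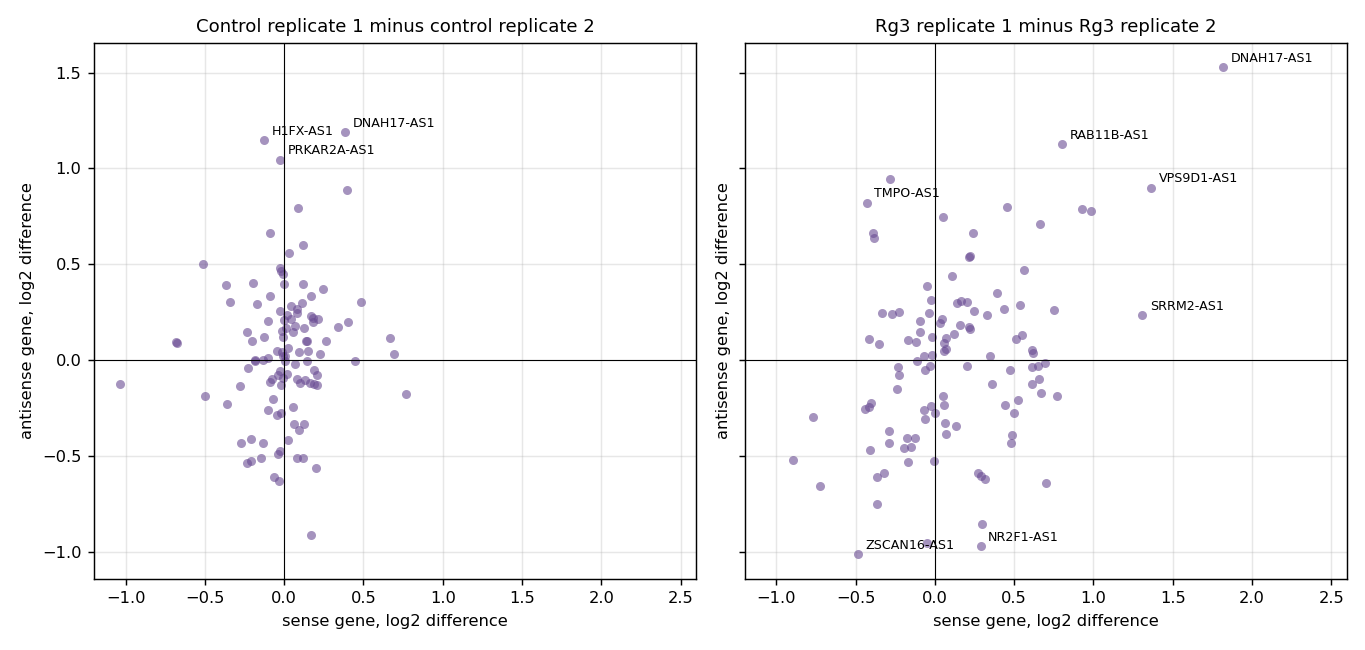
Log2 difference between the replicates of a group for the antisense gene (vertical axis) and its sense gene (horizontal axis), in controls (left) and Rg3 libraries (right), 113 pairs each, on the same axes. The points spread farther along the sense axis between the Rg3 libraries, where DNAH17-AS1 and VPS9D1-AS1 lie to the upper right and Pearson r is 0.38, against 0.10 between the controls.

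Of 37 often studied antisense RNAs, 17 were among the 130 genes, 8 of them above 0 and 9 below, with a median log2 fold change of −0.05. In edgeR 0 had an unadjusted p under 0.05, against 4.73% of all genes tested, and the smallest was 0.23, for MCM3AP-AS1. That gene had 94 and 86 control counts, and 152 and 93 after Rg3 (log2 fold change 0.32, SE 0.24), with both Rg3 libraries above both controls in CPM. LOXL1-AS1, next to a gene of elastic fibre crosslinking, had 130 and 124 counts, then 122 and 104 (−0.27, SE 0.22), with both Rg3 libraries below both controls. CDKN2B-AS1, known as ANRIL and linked to silencing of the INK4 locus, had 96 and 147, then 138 and 143 (0.13, SE 0.26). SBF2-AS1 had 198 and 284, then 245 and 243, and TP73-AS1 had 115 and 144, then 145 and 123. Of the 17, MCM3AP-AS1 and LOXL1-AS1 alone had groups that did not overlap. Of all genes tested, 15.3% lay above both controls in both Rg3 libraries and 17% below.

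The lowest of the 17 in log2 fold change was HOXD-AS2, with 29 and 51 control counts, and 35 and 30 after Rg3 (−0.39, SE 0.36), and without control replicate 2 it was 0.017. Its neighbours HOXD8 and HOXD9 had 33 and 37, then 63 and 55 counts, and 79 and 45, then 90 and 53. HOXD8 had a log2 fold change of 0.66 (SE 0.29, edgeR adjusted p = 0.999). FOXD2-AS1 had 37 and 42 counts, then 52 and 24, NR2F1-AS1 had 24 and 36, then 22 and 34, and MNX1-AS1 had 78 and 84, then 91 and 82, the last at 3.17 and 3.18 CPM in the group means. PCBP1-AS1, ZNRD1-AS1 and RUSC1-AS1 had log2 fold changes of −0.17, −0.11 and 0.04.

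Grouped by how the symbol of the sense gene starts, 11 antisense genes fell to homeobox and other transcription factor genes (5 above 0 and 6 below, median −0.06). The 2 PAXIP1 antisense genes were left out of that group, since PAXIP1 is no paired box gene, a choice made after their values were seen. By the same rule, another 6 fell to splicing and RNA-binding genes (2 above 0 and 4 below, median −0.02) and 5 to cell cycle genes (4 above 0 and 1 below, median 0.10). The other sense genes, DDX11 and MCM3AP among them, were kept by the start of the symbol alone, without a check of their function. No member of the 3 groups was called, beside 0.0306% of all genes tested. In each of the first 2 groups 1 gene (FOXN3-AS1 and SRRM2-AS1) had an unadjusted edgeR p under 0.05, against 4.73% of all genes tested. None of the 130 genes was named after a gene of the sterol and lipid group. None of the 5 genes called in the whole table, all of cholesterol synthesis, had an antisense gene of its own name.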

How the data were processed

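Read counts per gene symbol were deposited by the authors as whole numbers, not normalised, for 2 control and 2 Rg3 libraries. GRCh37 is the genome build in the submitters' processing notes. The sources used here give no aligner, counter, annotation or strand setting. Counts were tested in R 4.3.3 with edgeR 4.0.16 (quasi-likelihood test, treatment as the only term, TMM scaling, filterByExpr at min.count 10 and min.total.count 15) over all 16323 genes that passed, with Benjamini-Hochberg adjustment over all of them. The script was tested on simulated data. CPM are counts divided by the TMM-corrected library total, as edgeR gives them. Each standard error (SE) is the size of the log2 fold change divided by the square root of the F statistic of edgeR's test. Alternatives were DESeq2 1.42.0, limma 3.58.1 (voom), other scaling, no filter, a replicate block, other count minima, a pseudocount of 2 in the ratios and each library left out.

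Named genes were the 12 with the highest mean CPM, 6 per direction with the smallest p (mean of at least 1 CPM, groups not overlapping), 6 pairs per direction with the largest ratio change (both genes at least 100 counts, groups not overlapping) and a fixed list of often studied antisense RNAs. The members and lists were chosen with earlier results of these data known. Names, start positions and sequences came from RefSeq tables of GRCh38.p14. All 130 symbols matched, and 18 of the 112 genes with a start window have several starts listed.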

Additional observations from a re-analysis of the deposited data

How the results depend on the processing

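Count minima of 50 (182 genes) or 400 (45 genes) read other rows of the main fit, whose 5 called genes were all of cholesterol synthesis. Their 0 calls were thus fixed in advance. Calls among the 130 antisense genes stayed at 0 with DESeq2, limma voom, RLE size factors, no filter and the replicate block. Leaving out 1 library gave 0 to 1 (ASB16-AS1 without Rg3 replicate 1, NPPA-AS1 without Rg3 replicate 2). The smallest adjusted p among them ran from 0.0423 to 0.99999 over the edgeR, DESeq2 and voom alternatives, and was 0.104 without a filter and 0.160 with the replicate block. Their median log2 fold change ran from −0.072 to −0.016 without 1 library, the last without control replicate 1, and from −0.062 (limma voom) to −0.047 (DESeq2) under the other alternatives. The Pearson r between antisense and sense changes was 0.33 over antisense genes with at least 400 counts, 0.23 with at least 50, 0.43 with both genes at 400 or more, and 0.031 to 0.275 without 1 library. The median change of the antisense to sense ratio ran from −0.074 to −0.020 without 1 library. It was −0.063 with a pseudocount of 2, −0.064 at a minimum of 50 counts and −0.032 at 400. The cause of these shifts was not tested.

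Replicate numbers are shared by both groups, but nothing in the labels says that they pair the libraries, and deviations of same-numbered libraries correlated at 0.149 across genes. With the replicate block 155 genes of the whole table (0.95%) were called instead of 5, DESeq2 called 54 (0.21%) and edgeR without a filter 214 (0.834%). RLE size factors and limma voom called 5 each (0.0306%). Signs turned for MNX1-AS1 (−0.0084 with voom, −0.00062 with the replicate block) and RUSC1-AS1 (−0.022 with voom). When 1 library was left out, 26 of the 46 named genes kept their sign in every fit and 20 turned in at least 1. The log2 fold changes of these 20 ran, over the fits without 1 library, as follows: FGD5-AS1 −0.10 to 0.29, OIP5-AS1 −0.064 to 0.19, RPA3-AS1 −0.12 to 0.19, MAPKAPK5-AS1 −0.016 to 0.25, DYNLL1-AS1 −0.19 to 0.0021, TTN-AS1 −0.21 to 0.13, VPS9D1-AS1 −0.46 to 0.44, PRRT3-AS1 −0.099 to 0.010, DNAH17-AS1 −0.58 to 1.13, SBF2-AS1 −0.24 to 0.17, TP73-AS1 −0.14 to 0.073, HOXD-AS2 −0.69 to 0.017, FOXD2-AS1 −0.63 to 0.13, CDKN2B-AS1 −0.088 to 0.42, MNX1-AS1 −0.10 to 0.11, NR2F1-AS1 −0.71 to 0.27, TMPO-AS1 −0.38 to 0.47, PCBP1-AS1 −0.35 to 0.053, ZNRD1-AS1 −0.22 to 0.021, RUSC1-AS1 −0.43 to 0.43.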

Other observations

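Some antisense genes below the count minimum lie next to genes of sterol metabolism or of the clock. BHLHE40-AS1 had 3 and 9 control counts, and 23 and 25 after Rg3 (log2 fold change 1.90, SE 0.55, edgeR adjusted p = 0.905). Both control counts were under the filter minimum of 10, so this gene was tested only because the Rg3 group was high. BHLHE40, a clock and stress transcription factor gene, had 920 and 1020 counts, then 3221 and 1402 (1.10, SE 0.26, adjusted p = 0.60). STARD4-AS1 had 7 and 4 counts, then 12 and 4, too few to test, beside STARD4, a sterol transport gene, at 20.7 ± 0.965 CPM in controls and 44.9 ± 2.12 CPM with Rg3 (1.11, SE 0.14, edgeR adjusted p = 0.086). IDI2-AS1 had 8 and 15 counts, then 16 and 14, IDI2 had 0 counts in every library, and IDI1 was at 82.4 ± 0.681 and 277 ± 21.5 CPM. BHLHE40-AS1 was singled out after its values were seen.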
